A study of Mus musculus with 9 samples.

Results

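The proteasome genes comprised every gene symbol of the pattern Psma to Psmg followed by a digit, which gave 50 of the 23997 gene symbols in the data. They were picked by name alone, but the set was chosen with earlier results of these data known. Each gene was listed at a single locus and none carried a failed estimate. The level of a gene was its FPKM (a fragment count per unit of transcript length and of library depth), scaled so that the 9 libraries were comparable. Psma8 and Psmb11 were at or near 0 and were not tested, which left 48 genes.

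RGCs (retinal ganglion cells, whose axons form the optic nerve) came from C57BL/6J mice that were injected into the anterior chamber at 6 weeks of age and were labelled as 8 weeks old when the cells were taken, 2 weeks later. Control eyes received saline. Mild IOP and Moderate IOP eyes received polystyrene microbeads, a model in which outflow of aqueous humour is blocked and IOP (intraocular pressure) goes up, and were assigned to a group by the size of the IOP increase measured over those 2 weeks. Cells were purified by immunopanning, with plates that remove macrophages, microglia, endothelial cells, fibroblasts and amacrine cells followed by a plate with antibodies to Thy1.2, and all groups shared this procedure. The RNA of each group was pooled over retinas and split into 3 replicates, so each group was a single pool, and standard errors and p-values covered the technical spread between libraries and not the spread between animals.

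The proteasome is the barrel-shaped protease that degrades proteins marked with ubiquitin. Its 20S core has 2 outer rings of alpha subunits, which gate the entrance, and 2 inner rings of beta subunits, of which Psmb5, Psmb6 and Psmb7 cut the protein chain. The 19S particle caps the core: its base holds a ring of ATPases that unfold the substrate, and its lid removes ubiquitin. Activators can cap the core in place of the 19S particle, chaperones build the rings, and cells exposed to interferon exchange the catalytic subunits for the immunoproteasome subunits Psmb8, Psmb9 and Psmb10. In neurons the proteasome turns over synaptic, axonal and misfolded proteins.

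Library depth, derived from the confidence intervals of the FPKM values, lay between 4780000 and 8610000 fragments. Of 10 RGC markers all were measured, and their summed level was 1450 to 1533 scaled FPKM in Control, 1065 to 1311 in Mild IOP and 2289 to 2434 in Moderate IOP. The sum of 7 amacrine markers was 766 to 814 in Control, 842 to 901 in Mild IOP and 548 to 597 in Moderate IOP, with Chat at or near 0. The sum of 6 rod markers was 441 to 529.5 in Control, 291 to 326 in Mild IOP and 284 to 336 in Moderate IOP. The sum of 6 lens markers was 306 to 370.0 in Control and at most 5.00 in each IOP library. Glia markers summed to 113 to 123, 106 to 136 and 161 to 216 in the same order, bipolar markers to 59.0 to 75.5, 53.1 to 67.2 and 88.0 to 99.1, and microglia markers to 15.7 to 26.2, 17.4 to 31.8 and 27.1 to 35.2. The sum of 5 endothelial markers was 1.48 to 3.48 over all libraries, most of it from Kdr, with Cldn5 and Cdh5 listed at 0 in every library. Single genes also made up most of other sums. For RGCs this was Sncg, with means of 911, 641 and 1389 in Control, Mild IOP and Moderate IOP. In the same order it was Gad1 for amacrine cells (549, 587 and 421), Apoe for glia (78.3, 81.2 and 127) and Pcp2 for bipolar cells (47.1, 32.7 and 65.9). In such bulk samples fewer cells of a type and less RNA per cell cannot be told apart.

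Promoters were available for 42 of the 50 genes, and 4 are shown because they belong to genes that the results turn on: catalytic subunits Psmb5 and Psmb6, and Psmg4 and Psmd2, the genes that differed from Control. Each line gives the 250 bases before the annotated start (RefSeq, GRCm38.p6), and capitals mark TGACNNNGC, the core of the antioxidant response element bound by the proteasome gene regulators Nfe2l1 and Nfe2l2, searched on both strands.
Psmb5 (chr14:54617996-54618245, minus strand): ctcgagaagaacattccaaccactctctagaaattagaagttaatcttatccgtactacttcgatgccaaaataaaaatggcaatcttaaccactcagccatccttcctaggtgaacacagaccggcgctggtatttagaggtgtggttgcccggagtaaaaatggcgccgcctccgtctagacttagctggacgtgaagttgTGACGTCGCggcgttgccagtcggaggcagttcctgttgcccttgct
Psmb6 (chr11:70525107-70525356, plus strand): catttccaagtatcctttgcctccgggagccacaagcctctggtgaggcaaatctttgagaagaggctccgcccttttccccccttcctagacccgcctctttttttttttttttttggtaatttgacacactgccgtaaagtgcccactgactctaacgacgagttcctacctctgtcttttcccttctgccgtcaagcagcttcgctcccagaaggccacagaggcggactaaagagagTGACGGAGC
Psmg4 (chr13:34162714-34162963, plus strand): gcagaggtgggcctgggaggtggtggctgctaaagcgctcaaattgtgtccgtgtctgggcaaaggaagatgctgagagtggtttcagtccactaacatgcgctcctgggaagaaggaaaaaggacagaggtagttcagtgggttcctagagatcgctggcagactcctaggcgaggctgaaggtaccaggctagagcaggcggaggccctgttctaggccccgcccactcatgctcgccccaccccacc
Psmd2 (chr16:20651402-20651651, plus strand): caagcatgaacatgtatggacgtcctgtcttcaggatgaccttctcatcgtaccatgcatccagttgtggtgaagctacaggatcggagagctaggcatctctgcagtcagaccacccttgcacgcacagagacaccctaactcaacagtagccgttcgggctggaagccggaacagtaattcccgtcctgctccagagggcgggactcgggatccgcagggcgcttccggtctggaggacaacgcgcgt
TGACNNNGC was present in 5 of the 42 promoters (Psmb5, Psmb6, Psmc6, Psmd9 and Psmd12), or 11.9%, and in 11.5% of all 27025 genes with a promoter. The CCAAT box (CCAAT on either strand) was present in 15 of the 42, or 35.7%, and in 37.5% of all genes. No proteasome promoter held both motifs, and a match is a description of the sequence only.

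In Control RGCs the subunits of the 20S core and the 19S particle were abundant. Mean levels of the 7 alpha ring genes ran from 123 ± 6.38 scaled FPKM (SD, n = 3) for Psma4 to 397 ± 14.96 for Psma7, and those of the 4 structural beta genes from 263 ± 15.8 for Psmb1 to 394 ± 79.1 for Psmb3. The 8 lid genes were lower, from 67.6 for Psmd11 to 164 for Psmd8, and the 7 assembly factors lower again, from 19.02 for Psmd9 to 76.3 for Psmd5. A pair of genes had the highest FPKM of the set. Psmb5, the chymotrypsin-like catalytic subunit, had a Control mean of 3131 ± 1789 and ranked 7th of all genes by Control mean. Fragment numbers derived from the confidence intervals did not follow this level. In Control replicate 1 they were 1938 for Psmb5 and 2828 for Psmb6, at 2319.8 and 459 scaled FPKM. The cause was not tested. Psmc4, an ATPase of the base, had a Control mean of 1250.5 ± 697 and ranked 31st. The inducible and tissue-specific genes were at the other end. Psmb10 had a Control mean of 21.0 ± 9.22, Psmb9 of 1.54 ± 0.693 and Psmb8 of 0.652 ± 0.351, while Psma8, a testis subunit, was at 0 in all 9 libraries and Psmb11, the thymus subunit, did not exceed 0.0430.

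**Figure D1:**
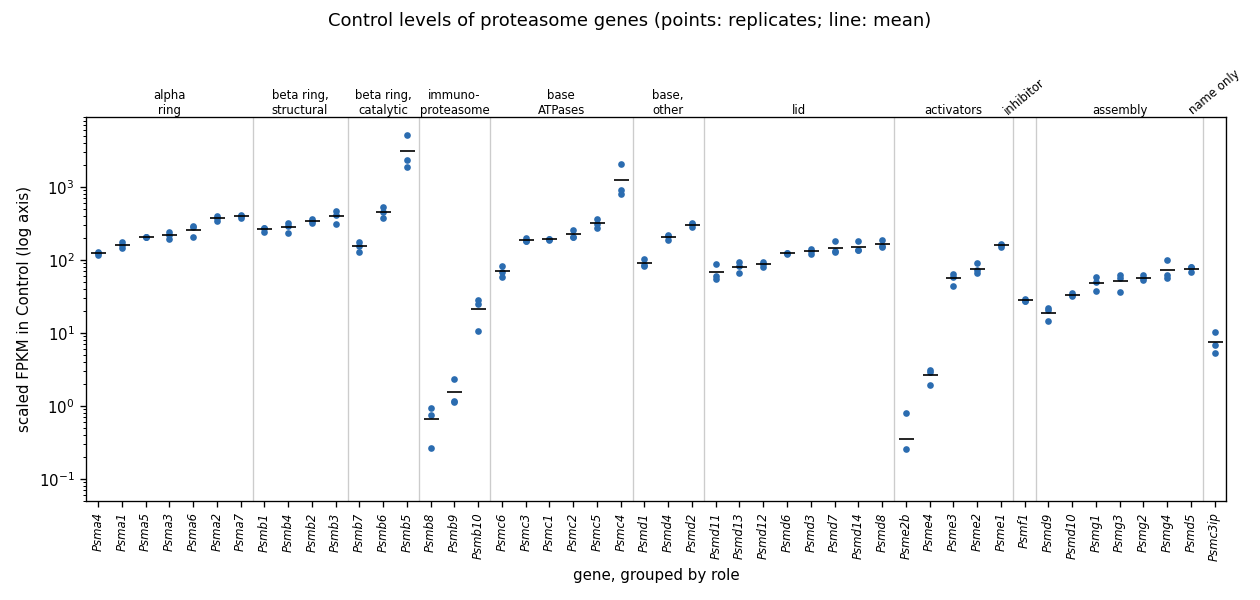
Scaled FPKM (log axis) of the 48 tested genes in the 3 Control replicates, grouped by role and ordered by mean within a role, with points for replicates and a line for the mean. Psmb5 and Psmc4 stand above every other gene, Psmb8, Psmb9 and Psme2b lie lowest, and a replicate at 0 (Psme2b) cannot be drawn on the log axis.

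The comparison of Mild IOP with Control asked which genes differ after a small rise of IOP. Psmg4, a chaperone that helps the alpha ring form, was the only proteasome gene that fell, to 0.398 of the Control level. By the limma fit with an adjusted p below 0.1, 1 of 48 proteasome genes was called lower, against 0.391% of all 13043 genes tested. None of the 48 was called higher, against 0.00767% of all genes. At an unadjusted p below 0.05, 15 of the 48 were lower, against 7% of all genes, and 0 were higher, against 3.15%. Most of the other genes had lower means in Mild IOP without passing the test: 41 of the 48 log2 fold changes were negative, with a median of -0.27 against 0.01 over all genes tested. The median was -0.09 with 30 of 48 negative after cyclic loess normalisation, and -0.11 with 35 negative when the trend with transcript length was removed.

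Psmg4 (chr13:34162964-34178172, mm10) was at 57.3, 61.8 and 100.4 scaled FPKM in Control and at 27.4, 31.2 and 24.6 in Mild IOP. Every Mild IOP library was below every Control library, with a log2 fold change of -1.33 ± 0.23 (SE) and an adjusted p of 0.0631. The gene has a short transcript of 514.5 nt and its Mild IOP values rested on 35 to 58 derived fragments. The adjusted p ranged from 0.0238 to 0.451 over 22 alternatives and stayed under 0.1 in 10 of them, and the call was lost without Control replicate 1, 2 or 3, Mild replicate 1 or 2, or Moderate replicate 2.

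The 7 genes next in order of p did not pass the test. Psmb1, a structural beta subunit, was at 271, 273 and 245 in Control and at 191, 168 and 180.3 in Mild IOP (log2 fold change -0.55 ± 0.11, adjusted p = 0.103). Psme1, the alpha subunit of the PA28 activator, was at 162, 166 and 152 in Control and at 124, 102 and 115 in Mild IOP (-0.50 ± 0.12, adjusted p = 0.164). In both genes the groups did not overlap. Psma7 of the alpha ring was at 411, 399 and 381 in Control and at 299, 212 and 335 in Mild IOP. Psmb4 of the beta ring was at 288, 326 and 233 in Control and at 205, 159 and 223 in Mild IOP. Psmb6, the caspase-like catalytic subunit, was at 459, 529.7 and 381 in Control and at 319, 225 and 376 in Mild IOP. These 3 genes also showed no overlap, by a narrow margin for Psmb4 and Psmb6. Psma2 was at 378, 396 and 342 in Control and at 279.9, 233 and 332 in Mild IOP, again without overlap. Psmb3 was at 414, 462 and 307 in Control and at 282, 236 and 316 in Mild IOP, where Mild replicate 3 exceeded Control replicate 3.

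By role, the median log2 fold change was -0.41 for the 14 subunits of the 20S core, all of them negative. It was -0.17 for the 17 subunits of the 19S particle, of which 14 were negative. After cyclic loess normalisation the 19S median was 0.02 and the core median stayed negative at -0.19. With the length trend removed the 19S median was -0.08 and the core median -0.17. Groups did not overlap and Mild IOP was lower in 16 of 48 genes, against 9.13% of all genes. Among genes with transcripts under 1500 nt, a boundary set after the values were seen, the same held for 11 of 26 proteasome genes and 505 of all 2245 genes, and the median log2 fold change was -0.40 and -0.27, respectively. Of these shorter transcripts, 1 of 26 proteasome genes and 43 of all 2245 genes were called lower. Psmd6 of the lid was the only proteasome gene with every Mild IOP library above Control, against 7.94% of all genes (log2 fold change 0.08 ± 0.11, adjusted p = 0.856).

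Moderate IOP was compared with Control to see which genes differ after a larger rise of IOP. Psmd2, a scaffold subunit of the base to which ubiquitin shuttles dock, was the only proteasome gene that changed, and it fell to 0.681 of the Control level. Called in either direction were 1 of 48 proteasome genes and 1.84% of all genes tested; 0.889% of all genes were called lower. None of the 48 was called higher, against 0.951% of all genes, and at an unadjusted p below 0.05 limma gave 3 higher (Psma6, Psmb2 and Psmd11), against 8.03%. The median log2 fold change was 0.13 for the proteasome genes, with 34 of 48 positive, and below 0.01 in size for all genes tested. It was 0.03 with 27 of 48 positive after cyclic loess normalisation, and 0.05 with 25 positive when the trend with transcript length was removed.

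Psmd2 (chr16:20651652-20663414, mm10) was at 307, 282 and 318 scaled FPKM in Control, at 250.2, 284 and 277 in Mild IOP and at 219.9, 188 and 209 in Moderate IOP. The Moderate IOP libraries lay below all others, while Mild IOP overlapped Control. The log2 fold change was -0.55 ± 0.11 with an adjusted p of 0.0478. The adjusted p ranged from 0.0321 to 0.161 over 22 alternatives, 17 of which kept the call; it was lost without Control replicate 1 or 2 or Moderate replicate 2, and without Moderate replicate 1 the comparison called 2 proteasome genes.

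Other genes with a small p did not pass the test. Psmc3ip matches the name pattern but is no proteasome gene: its product binds an ATPase of the base and acts in meiotic recombination. It was at 6.73, 5.27 and 10.2 in Control and at 4.28, 1.30 and 1.10 in Moderate IOP, without overlap (log2 fold change -1.47 ± 0.42, adjusted p = 0.149). Psmd11, a lid scaffold, was at 60.3, 88.2 and 54.4 in Control and at 88.0, 91.5 and 83.8 in Moderate IOP, where Control replicate 2 overlapped. Psma6 was at 279.8, 288 and 208 in Control and at 330.1, 329 and 333 in Moderate IOP, and Moderate IOP was higher in every library. Psmb2 was at 320.2, 360.2 and 344 in Control and at 425, 415 and 392 in Moderate IOP, also without overlap. Adjusted p was 0.287 for Psmd11, 0.303 for Psma6 and 0.322 for Psmb2. Psmd14, the deubiquitinase of the lid, was at 136, 137 and 183 in Control and at 196, 174 and 188 in Moderate IOP (adjusted p = 0.350). Psmc2, an ATPase of the base, was at 205, 260.4 and 205 in Control and at 304, 247 and 263 in Moderate IOP (adjusted p = 0.360). Both overlapped between the groups. Every lid gene had a positive log2 fold change, from 0.07 to 0.40, and none of the 8 passed the test. Groups did not overlap and Moderate IOP was higher in 6 of 48 genes, or 12.5%, against 9.95% of all genes. Moderate IOP was lower without overlap in 2 genes, Psmd2 and Psmc3ip, against 9.48% of all genes.

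**Figure D2:**
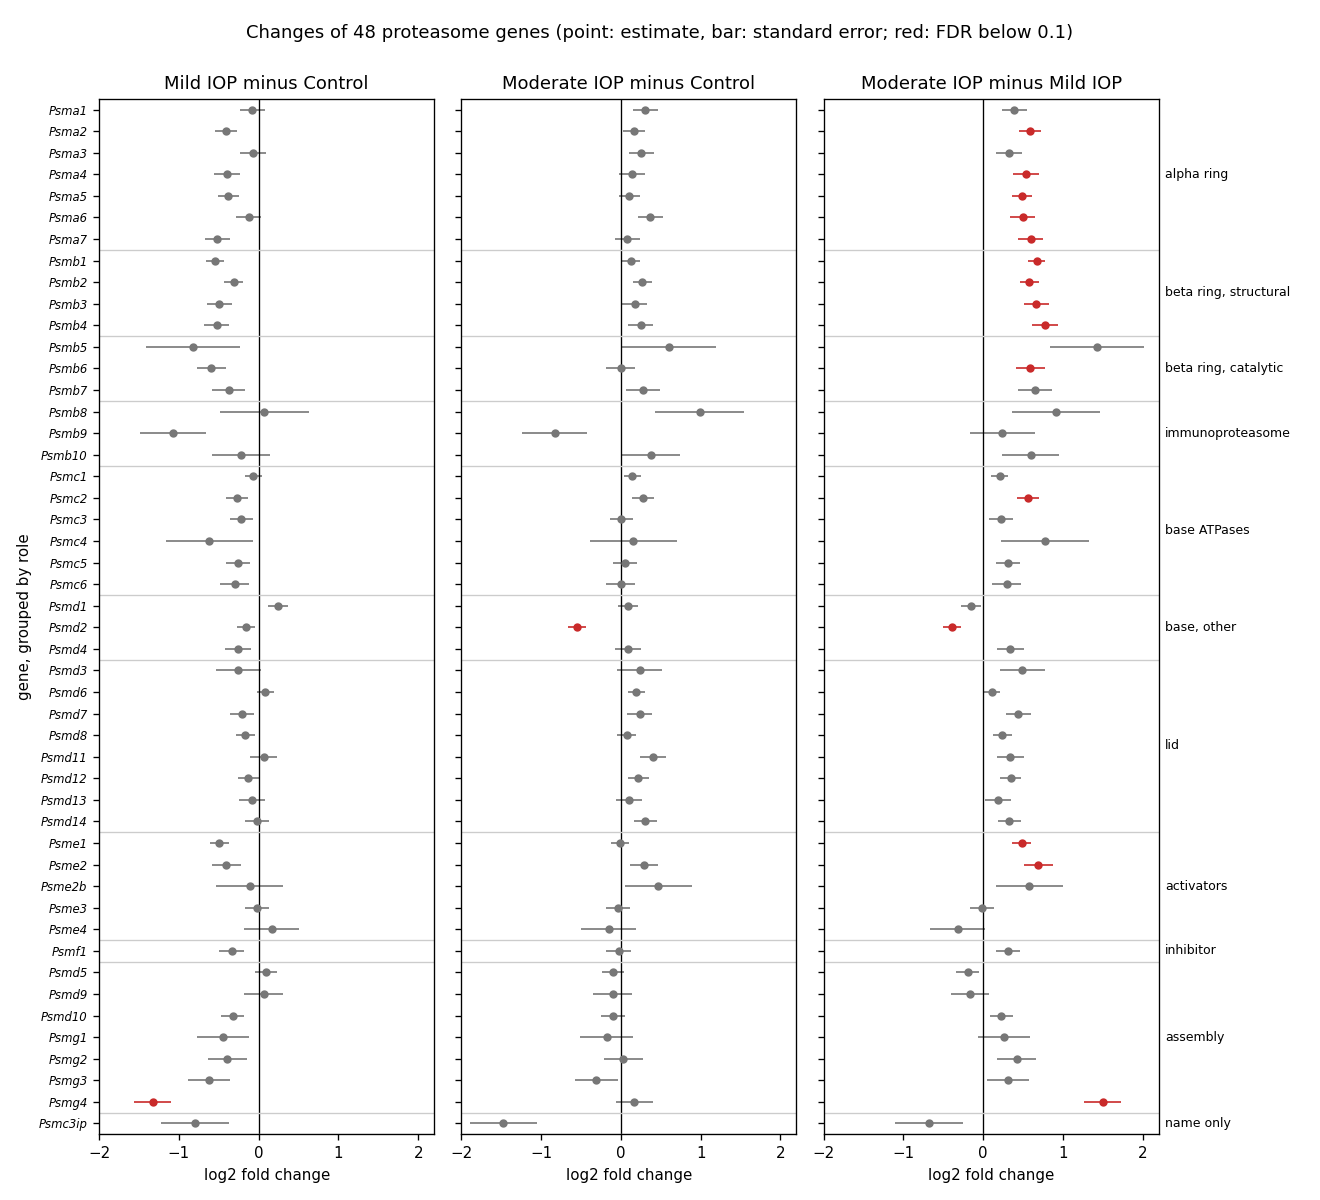
Log2 fold change with standard error of the 48 tested genes, grouped by role, in the 3 comparisons, with genes at an adjusted p below 0.1 in red. Most points lie left of 0 for Mild IOP minus Control (41 of 48) and right of 0 for Moderate IOP minus Mild IOP (41 of 48), and the red points of the latter are mostly in the 20S core.

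The 3 comparisons share libraries, so they are not independent of each other. Moderate IOP was compared with Mild IOP to ask what differs between the levels of IOP elevation. Here 14 of 48 proteasome genes rose, against 7.03% of all genes tested, and 1 fell, against 3.12%. Of the 14, 10 encode the 20S core (Psma2, Psma4, Psma5, Psma6, Psma7, Psmb1, Psmb2, Psmb3, Psmb4 and Psmb6), and the others were the ATPase Psmc2, both subunits of the PA28 activator (Psme1 and Psme2) and the chaperone Psmg4. Psmd2 fell, by 0.39 ± 0.11 on the log2 scale (adjusted p = 0.0615). The median log2 fold change was 0.37 for the proteasome genes and -0.02 for all genes tested. It was 0.59 for the 20S core and stayed positive, between 0.15 and 0.72, in every alternative run, but the calls did not hold. After cyclic loess normalisation none of the 10 core genes kept its call. The 2 proteasome genes then called higher were Psme2 and Psmg4, and the median of the 48 was 0.15.

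The number of genes that rose was 5 without Mild replicate 2, 6 without Moderate replicate 1 and 8 without Moderate replicate 2. The median log2 fold change of the 20S core was 0.43, 0.54 and 0.56 in these fits, with all 14 subunits positive. Mild replicate 2 was the lowest of the 9 libraries in 31 of the 48 genes, against 15.5% of all genes. In that library a single gene held 20.5% of the FPKM sum, against 1.87% to 9.14% in the others, and its part in the result was not tested.

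**Figure D3:**
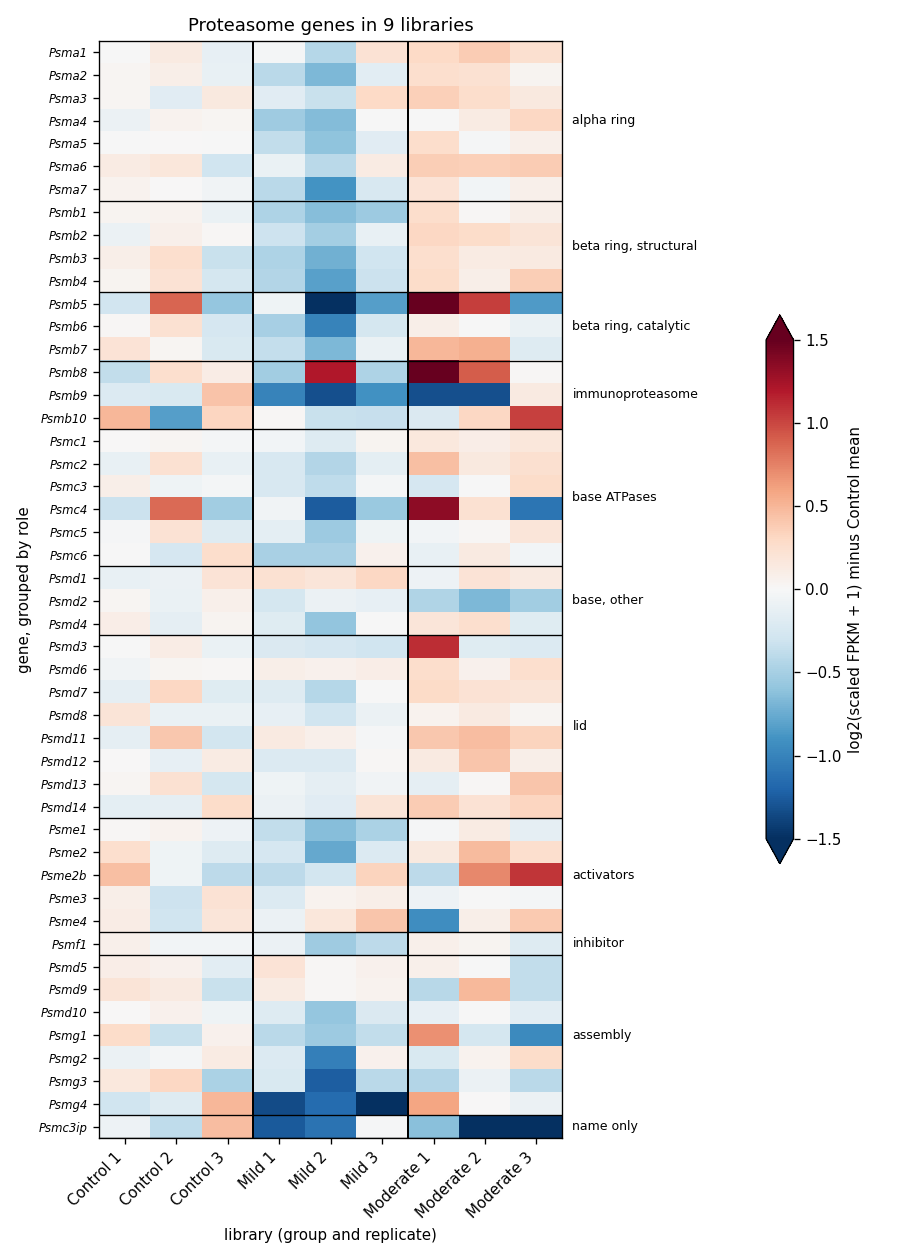
Level of the 48 tested genes in the 9 libraries as log2(scaled FPKM + 1) minus the Control mean, grouped by role, with colours cut at 1.5 in either direction. The Mild 2 column is the bluest through the alpha and beta rings. The Moderate columns are mostly red there, with Psmb5, Psmb6 and Psmb7 below the Control mean in Moderate 3. Psmb5 and Psmc4 have their replicates in the same order within every group.

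In the alpha ring, 5 of 7 genes rose and the median log2 fold change was 0.50. Psma2 was at 442, 434 and 381 in Moderate IOP against 279.9, 233 and 332 in Mild IOP, with no overlap (log2 fold change 0.58 ± 0.14, adjusted p = 0.0344). Psma7 had means of 421 ± 37.0 in Moderate IOP and 282 ± 63.3 in Mild IOP (0.60 ± 0.16, adjusted p = 0.0502), and Psma5 of 225 ± 22.6 and 161 ± 24.3 (0.49 ± 0.13, adjusted p = 0.0526). Psma4 and Psma6 passed closer to the threshold, at an adjusted p of 0.0854 and 0.0971, and each kept its call in 8 of 22 alternatives. Psma2 kept it in 18, and Psma5 and Psma7 in 14. Psma1 and Psma3 did not pass (adjusted p = 0.174 and 0.272). The summed level of the ring was 1649 to 1788 scaled FPKM in Control, 1142 to 1705 in Mild IOP and 1933 to 2076 in Moderate IOP, so Moderate IOP lay above both other groups while Mild replicate 3 reached into the Control range.

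All 4 structural subunits of the beta ring rose. Psmb1 (chr17:15475721-15498276, mm10) was at 317, 265 and 280.0 in Moderate IOP against 191, 168 and 180.3 in Mild IOP (log2 fold change 0.67 ± 0.11, adjusted p = 0.00976). Psmb4 was at 338, 298 and 362 against 205, 159 and 223 (0.77 ± 0.16, adjusted p = 0.0209). Psmb2 was at 425, 415 and 392 against 276, 239 and 315 (0.58 ± 0.12, adjusted p = 0.0208). Psmb3 rose by a similar amount, from 282, 236 and 316 in Mild IOP to 463, 424 and 428 in Moderate IOP (0.67 ± 0.16, adjusted p = 0.0355). The groups did not overlap in any of these genes. Psmb1 kept its call in 21 of 22 alternatives, more than any other core gene, and lost it after cyclic loess normalisation, where the adjusted p was 0.138. The summed level of these genes was 1129 to 1421 in Control, 802 to 1034 in Mild IOP and 1402 to 1543 in Moderate IOP, with Mild IOP below every other library.

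Of the catalytic beta subunits, 1 of 3 passed. Psmb6 was at 482, 451 and 424 in Moderate IOP against 319, 225 and 376 in Mild IOP (log2 fold change 0.59 ± 0.18, adjusted p = 0.0872), and it kept its call in 9 of 22 alternatives. Psmb7, the trypsin-like subunit, was at 176, 155 and 129.6 in Control, at 118, 95.5 and 142 in Mild IOP and at 216, 221 and 133 in Moderate IOP (0.66 ± 0.21, adjusted p = 0.101). Moderate replicate 3 of Psmb7 lay inside the Mild IOP range. Psmb5 had the largest estimate of the 3, 1.42, but a standard error of 0.59 and an adjusted p of 0.190.

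In the 19S particle, 1 of 17 genes rose and 1 fell, with a median log2 fold change of 0.31. After cyclic loess normalisation the 19S median became -0.0013, against 0.16 for the 20S core. With the length trend removed it was 0.11, against 0.15 for the 20S core. The gene that rose was Psmc2, at 304, 247 and 263 in Moderate IOP against 188, 163 and 200.2 in Mild IOP (0.56 ± 0.14, adjusted p = 0.0393). None of the 8 lid genes passed, although in 6 of them the groups did not overlap and Moderate IOP was higher. Moderate and Mild IOP did not overlap in 24 of the 48 proteasome genes with Moderate IOP higher, or 50.0%, against 14.5% of all genes. Psmd2 alone was lower without overlap, against 13% of all genes. The summed level of the lid was 927 to 1001 in Control, 831 to 940 in Mild IOP and 1057 to 1233 in Moderate IOP. The highest value came from Moderate replicate 1, in which Psmd3 was at 284 against 106 to 142 in the other 8 libraries.

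Activators, inhibitor and assembly factors were mixed. Psme1 was at 158, 174 and 146 in Moderate IOP against 124, 102 and 115 in Mild IOP (log2 fold change 0.48 ± 0.12, adjusted p = 0.0379). Its partner Psme2 had means of 92.7 ± 11.1 and 57.5 ± 11.8 (0.69 ± 0.18, adjusted p = 0.0468). Psme2b, a close copy of Psme2, was at or below 1.76 in every library, and reads of the 2 copies could not be told apart here. Psme3, the nuclear activator, had a log2 fold change of -0.01 ± 0.16, Psme4 (PA200) of -0.32 ± 0.34, and the inhibitor Psmf1 of 0.31 ± 0.16, none of which passed. Psmg4 had the lowest p of the 48 genes, with 107, 71.0 and 66.5 in Moderate IOP against 27.4, 31.2 and 24.6 in Mild IOP (1.498 ± 0.23, adjusted p = 0.00784). It kept the call in 21 of 22 alternatives and lost it with the length trend removed, where the adjusted p was 0.241. The other alpha ring chaperones Psmg1, Psmg2 and Psmg3 had log2 fold changes of 0.26 ± 0.33, 0.42 ± 0.24 and 0.31 ± 0.27, and the base chaperones Psmd5, Psmd9 and Psmd10 of -0.19 ± 0.14, -0.17 ± 0.24 and 0.23 ± 0.15, and none of these passed.

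**Figure D4:**
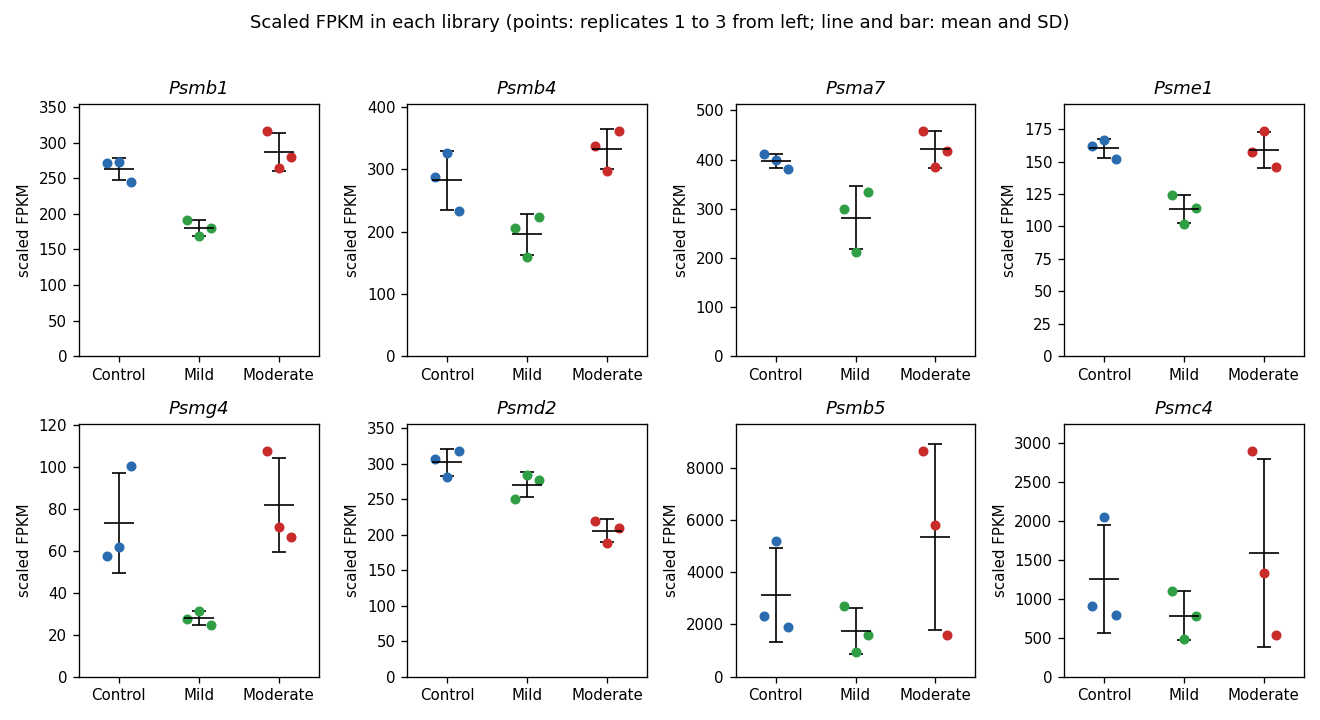
Scaled FPKM of 8 genes in each library, with points for replicates 1 to 3 from left to right and a line and bar for mean and SD. Mild IOP lies below both other groups in Psmb1, Psmb4, Psma7, Psme1 and Psmg4, Moderate IOP lies lowest in Psmd2, and the replicates of Psmb5 and Psmc4 scatter within every group.

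Proteasome transcripts are short, with a median length of 1398.5 nt against 2812 nt over all genes tested, and the difference between Moderate and Mild IOP went with transcript length over the whole transcriptome. Across 20 bins of transcript length the median log2 fold change of all genes was 0.73 in the shortest bin, 0.01 near 2275 nt and -0.20 near 5535 nt. Of genes with transcripts under 1500 nt, 11 of 26 proteasome genes and 25.7% of all genes rose. Of genes with longer transcripts, 3 of 22 proteasome genes (Psma2, Psmb1 and Psmc2) and 2.73% of all genes rose. The medians were 0.52 and 0.44 for the shorter transcripts and 0.31 and -0.08 for the longer ones, proteasome genes first. With the length trend removed from every library, 2 proteasome genes rose, and Psma6 and Psmb6 turned slightly negative. The median was then 0.06 for the proteasome genes, 0.15 for the 20S core and 0.11 for the 19S particle. The genes that rose in that fit were Psma2 and Psmb1, with assigned lengths of 2911 and 1758 nt. The trend removed depends on the assigned length, and the length of the transcripts expressed here was not measured.

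**Figure D5:**
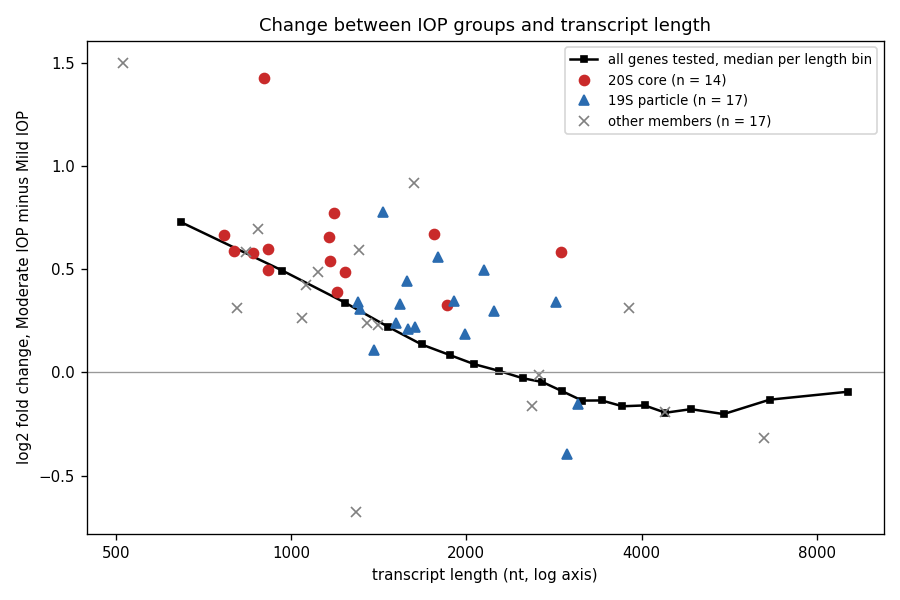
Log2 fold change of Moderate IOP minus Mild IOP against transcript length (log axis) for subunits of the 20S core, subunits of the 19S particle and the other proteasome genes, with the median of all genes in 20 length bins as a black line. The line falls from 0.73 at 646 nt to about 0 near 2275 nt, and most core subunits lie on or above it.

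Psmb5 and Psmc4 varied within every group. Psmb5 (chr14:54614120-54617995, mm10) was at 2319.8, 5181 and 1891 scaled FPKM in Control, at 2708, 945 and 1603 in Mild IOP and at 8646, 5828 and 1576 in Moderate IOP. Psmc4 (chr7:28041702-28050092, mm10) was at 907, 2052 and 792 in Control, at 1098, 477 and 775 in Mild IOP and at 2894, 1332 and 530.2 in Moderate IOP. Both were highest in Moderate replicate 1 and lowest in Mild replicate 2, and their replicates were in the same order within every group. The highest library exceeded the lowest 9.15 times for Psmb5 and 6.06 times for Psmc4, against 1.88 times for Psmb1. The confidence intervals of Psmb5 gave 1513 to 2200 derived fragments in the 9 libraries. Mir686 is annotated inside Psmb5, was listed close to 0, and its reads could not be told apart from those of Psmb5. Without Psmb5 the catalytic subunits summed to 511 to 685 in Control, 320.2 to 518 in Mild IOP and 557 to 698 in Moderate IOP, and without Psmc4 the ATPases to 933 to 1059, 738 to 953 and 1032 to 1131. In both sums Moderate IOP lay above every Mild IOP library.

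The immunoproteasome subunits are induced by interferon. Psmb8 was at 0.261, 0.940 and 0.753 in Control, at 0.135, 2.74 and 0.176 in Mild IOP and at 5.69, 2.04 and 0.647 in Moderate IOP. Psmb9 was at 1.16, 1.13 and 2.34 in Control, at 0.244, 0 and 0.324 in Mild IOP and at 0, 0 and 1.72 in Moderate IOP. Psmb10 was at 27.9, 10.54 and 24.6 in Control, at 19.7, 15.2 and 15.1 in Mild IOP and at 16.6, 24.4 and 40.7 in Moderate IOP. None passed the test in any comparison, the groups overlapped except for Psmb9 between Mild IOP and Control, and Psmb8 and Psmb9 rested on at most 29 derived fragments in a library.

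Genes outside the name pattern that act with the proteasome were counted from lists. Of 6 other proteasome genes, Pomp and Shfm1 rose in Moderate IOP against Mild IOP, where 7.03% of all genes rose, and none passed against Control. Pomp, the maturation chaperone of the core, was at 355, 410.3 and 319 in Control, at 249.7, 199.6 and 271 in Mild IOP and at 505, 453 and 379 in Moderate IOP (0.89 ± 0.15, adjusted p = 0.0105). Shfm1, a small lid subunit, had means of 402 ± 93.3, 237 ± 51.3 and 398 ± 27.9 in the same order (0.76 ± 0.19, adjusted p = 0.0427). The ubiquitin receptor Adrm1 (0.36, adjusted p = 0.172) and the deubiquitinase Usp14 (0.02, adjusted p = 0.968) did not pass. None of the 5 genes of a list named proteasome gene control (Nfe2l1, Nfe2l2, Ddi2, Ngly1 and Akirin2) passed in any comparison. Nfe2l1 had a mean of 70.0 ± 4.25 in Control RGCs, against 67.7 ± 5.92 with Mild and 64.9 ± 14.4 with Moderate IOP. None of the 9 shuttle and segregase genes measured, which carry or extract ubiquitinated proteins, passed in any comparison.

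Markers of cell types moved between the same groups as the proteasome genes. Of 10 RGC markers, 6 rose in Moderate IOP against Mild IOP, where 7.03% of all genes rose, among them Sncg (log2 fold change 1.13) and Thy1 (1.05). Of 6 amacrine markers tested, 3 fell, where 3.12% of all genes fell, among them Slc6a9 (-1.88); the other 3 had positive log2 fold changes that did not pass (Slc32a1 0.29, Tfap2a 0.42 and Tfap2b 0.13). Of 6 glia markers, Glul (0.96) and Apoe (0.63) rose, as did Pcp2 (1.03) of 6 bipolar markers, and no rod, microglia or lens marker passed in this comparison. Against Control, all 6 lens markers were called lower in each IOP group. Rod markers called lower were 2 of 6 in Mild IOP and 3 of 6 in Moderate IOP. Of all genes, 0.391% and 0.889% were called lower. Moderate IOP against Control also called 2 RGC and 2 glia markers higher, against 0.951% of all genes, and 2 amacrine markers lower. The part of the markers in the proteasome result was not tested.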

How the data were processed

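RNA of purified RGCs was profiled in 9 libraries, 3 per group, grouped by the sample labels. The authors aligned reads to mm10 and estimated FPKM with bowtie2 and cufflinks (the submitters' processing notes list FastQC, Trimmomatic, TopHat2, Cufflinks and Cuffdiff); the deposited files hold FPKM per locus with confidence intervals, without counts or totals. Loci of the same symbol were summed. Values were scaled by median-of-ratios factors (0.983 to 1.058). Genes with a mean of at least 0.5 and no failed estimate (13043) were fitted as log2(FPKM + 1), which understates the change of low genes, with limma 3.58.1 in R 4.3.3 over all 9 libraries with a variance trend. Calls were made at a Benjamini-Hochberg adjusted p (FDR) below 0.1. The fit was tested on simulated data. Derived fragments, (2 × FPKM / (upper bound - FPKM)) squared, treat the interval as counting error only and ran low for some abundant genes, such as Psmb5. The transcript length of a gene was the median over its GENCODE M21 transcripts with a RefSeq accession, whichever was expressed. Genes named were those called, the 8 with the lowest p per comparison and fixed roles. Members and lists were chosen with earlier results of these data known. Replicate numbers did not pair libraries (mean correlation of same-numbered deviations 0.01). Figures were drawn with matplotlib 3.10.9.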

Additional observations from a re-analysis of the deposited data

How the results depend on the processing

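Each comparison was recomputed under 13 other settings and with each of the 9 libraries left out; the sums of Psmb5-free and Psmc4-free roles were added after seeing the data. For Mild IOP against Control, 2 proteasome genes were called with upper-quartile scaling, with a mean FPKM of at least 5 and with library weights, and 0 with cyclic loess, no filter, only the groups compared, no variance trend, the replicate block or the length trend removed; all genes called, 52 as reported, were 85 with a mean FPKM of at least 5, 115 with library weights, 20 with cyclic loess, 24 with no filter, 11 with only the groups compared, 15 with no variance trend, 25 with the replicate block and 20 with the length trend removed. Leaving out libraries gave 0 to 1 proteasome genes and 14 to 172 genes. The upper-quartile factors were not centred on 1, so the filter and the added 1 acted on smaller values. That setting tested 6265 genes, 43 of them proteasome genes. For Moderate IOP against Control, no variance trend and the replicate block gave 0 proteasome genes, and all genes called, 240 as reported, were 134 with only the groups compared, 144 with no variance trend and 135 with the replicate block; leaving out libraries gave 0 to 2 and 61 to 271. For Moderate against Mild IOP, proteasome genes called were 3 with cyclic loess, 4 with no variance trend and 2 with the length trend removed; those higher were 2, 4 and 2, and 9 with only the groups compared. All genes called, 1324 as reported, were 839 with no variance trend and 401 with the length trend removed. Leaving out libraries gave 5 to 18 proteasome genes, 5 to 18 higher and 518 to 1362 genes. With the length trend removed, Psma6 (-0.037) and Psmb6 (-0.0194) reversed. That setting subtracts the trend by construction; the cause of the other changes was not tested. The replicate numbers marked no shared source, and the block left 12 proteasome genes called between the IOP groups. Of 127 estimates not called, 57 changed direction and 7 were called under some alternative. Of 72 recomputed role sums, 65 moved by less than 1 SD. Depth limits Psmb8, Psmb9 and Psme2b, which rested on few fragments.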
